A study of Homo sapiens with 6 samples.

Results

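The 10 mature microRNA entries described here have in common that they are annotated inside genes of small nucleolar RNAs (snoRNAs). They are hsa-miR-664a-3p, hsa-miR-664a-5p, hsa-miR-664b-3p, hsa-miR-664b-5p, hsa-miR-1248, hsa-miR-1291, hsa-miR-3651, hsa-miR-3653, hsa-miR-3607-3p and hsa-miR-3607-5p. They were chosen by name, and all 10 were among the 28846 small RNA entries counted in the series, of which 2596 are microRNAs. Small RNA was sequenced from K562 cells, a human erythroleukemia line that can be driven towards erythroid or megakaryocytic features. The control cells carried the lentiviral vector SIEW, which expresses GFP only, and the RUNX1 cells carried SIEW RUNX1, which expresses human RUNX1 together with GFP. Each condition had 3 samples from independent transductions, harvested after 10 days in culture. The comparison asks which small RNAs differ when the transcription factor RUNX1 is over-expressed. All cells come from 1 line that has endogenous RUNX1, and whether GFP-positive cells were sorted for these libraries is not given in the sources used here.

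SnoRNAs are noncoding RNAs of the nucleolus, and most are released from introns of protein-coding genes. Box H/ACA snoRNAs (SNORA) fold into hairpins, end shortly after a conserved ACA box and guide pseudouridylation by the enzyme dyskerin, while box C/D snoRNAs (SNORD) guide 2′-O-methylation. A microRNA is cut from a hairpin precursor, whose 5′ and 3′ arms can each give a mature strand (5p and 3p), and the seed near the 5′ end of the strand pairs with target messages. Short fragments of some snoRNAs enter the same protein complexes as microRNAs, so the same stretch of RNA can carry a snoRNA name and a microRNA name.

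In the GENCODE 29 annotation of GRCh38, 7 of 1881 microRNA genes overlapped a snoRNA gene on the same strand, and 6 of those 7 gave the entries miR-664a, miR-664b, miR-1248, miR-1291, miR-3651 and miR-3653. The mature strands of 7 entries were found in RefSeq (GRCh38) and matched the host snoRNA base for base. They are shown because they differ in which part of the snoRNA they cover, with the seed (bases 2 to 8) in capitals.
miR-664a-3p: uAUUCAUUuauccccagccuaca
miR-664a-5p: aCUGGCUAgggaaaaugauuggau
miR-664b-3p: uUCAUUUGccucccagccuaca
miR-664b-5p: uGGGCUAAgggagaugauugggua
miR-1248: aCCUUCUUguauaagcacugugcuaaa
miR-1291: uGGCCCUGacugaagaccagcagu
miR-3651: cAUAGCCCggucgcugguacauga
No 2 of these 7 strands have the same seed. Among 2370 human mature microRNAs, miR-664a-5p has its seed in common with miR-4794, miR-664b-3p with miR-579-3p, and miR-1291 with miR-6775-3p.

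MiR-664a and miR-664b lie in related H/ACA snoRNAs. SNORA36B (GRCh38, chr1:220200546-220200676, minus strand) is in an intron of RAB3GAP2, a Rab GTPase-activating protein subunit. SNORA36A (chrX:154768528-154768659, plus strand) is in DKC1, the gene of dyskerin itself, and overlapped an exon in 1 of 7 DKC1 transcripts. MiR-1248 begins at the first base of SNORA81 (chr3:186786675-186786852, plus strand) in EIF4A2, a translation initiation helicase, where 2 of 13 transcripts have an exon at that position. The 3 snoRNA sequences that carry the differences described further on are given 5′ to 3′ with the annotated microRNA strands in capitals.
SNORA36B: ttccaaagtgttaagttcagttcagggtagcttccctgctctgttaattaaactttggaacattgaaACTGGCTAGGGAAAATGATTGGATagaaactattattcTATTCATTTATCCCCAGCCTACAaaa
SNORA36A: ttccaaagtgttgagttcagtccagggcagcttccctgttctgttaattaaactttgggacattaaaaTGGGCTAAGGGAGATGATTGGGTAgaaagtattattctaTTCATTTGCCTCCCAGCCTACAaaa
SNORA81: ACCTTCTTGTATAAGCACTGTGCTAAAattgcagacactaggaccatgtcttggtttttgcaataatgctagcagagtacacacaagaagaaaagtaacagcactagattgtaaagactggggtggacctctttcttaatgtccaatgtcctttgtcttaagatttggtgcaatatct
SNORA36A and SNORA36B were identical at 116 of 132 aligned positions (87.9%). Their 3p strands had 19 identical, 2 mismatched and 3 gapped positions of 24, and their 5p strands had 17 identical, 6 mismatched and 2 gapped positions of 25.

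The entries sit at different positions in their snoRNAs. MiR-664a-3p occupies bases 106 to 128 of the 131 bases of SNORA36B and miR-664b-3p bases 108 to 129 of the 132 bases of SNORA36A, so that both end in the ACA box, 3 bases from the end of the snoRNA. Their 5p strands lie further inside, miR-664a-5p at bases 68 to 91 and miR-664b-5p at bases 69 to 92. MiR-3651 covers bases 110 to 133, the very end, of SNORA84 (chr9:92292461-92292593, minus strand), in an intron of IARS, isoleucyl-tRNA synthetase, and also holds the ACA box. An ACA at that distance from the end was present in 107 of 142 annotated SNORA genes (75.4%) and in 4 of 275 SNORD genes (1.5%). MiR-1248 (bases 1 to 27 of 178) and miR-1291 (bases 2 to 25 of 137) lie at the 5′ end instead. The host of miR-1291 is SNORA34, called SNORA2C in GENCODE (chr12:48654382-48654518, minus strand), in an intron of KANSL2, a subunit of the NSL chromatin complex. MiR-3653 lies in the C/D snoRNA SNORD125 (chr22:29333163-29333258, minus strand) in an intron of AP1B1, a subunit of a clathrin adaptor complex. MiR-3607 lies in SNORD138 (chr5:86620506-86620568, plus strand) in COX7C, a subunit of cytochrome c oxidase. SNORD138 overlapped an exon in 1 of 7 COX7C transcripts.

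**Figure D1:**
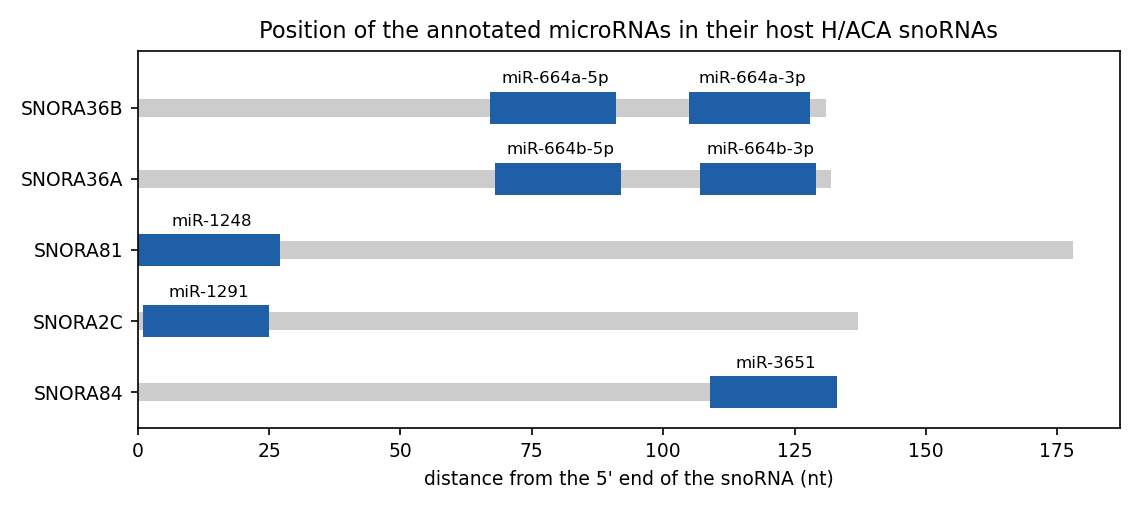
Position of the 7 annotated microRNA strands (blue) in their 5 host H/ACA snoRNAs (grey), in nucleotides from the 5′ end of the snoRNA. MiR-664a-3p, miR-664b-3p and miR-3651 lie at or near the 3′ end, miR-1248 and miR-1291 at or near the 5′ end, and miR-664a-5p and miR-664b-5p at neither.

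Total counts ranged from 1618248 (control replicate 1) to 15245007 (RUNX1 replicate 1), so values of the rarer entries are least precise in that control library. Values are given as CPM (counts scaled to a common library total) after scaling by the trimmed mean of M-values (TMM). The libraries differed in composition: microRNAs took 81.4 to 82.1% of the counts in control and 89.5 to 91.9% in RUNX1, and snoRNAs 11.2 to 11.8% and 6.28 to 7.34%. RUNX1 replicate 3 stood apart: its chi-square over the entries, divided by the degrees of freedom, was 545.2 and 371.8 against the other RUNX1 libraries, which gave 67.4 between themselves. Between control libraries it was 11.2 to 25.9. This measure grows with the number of counts, and every RUNX1 library held more counts than every control library. It therefore does not compare the spread of RUNX1 with that of control. The 7 blood microRNAs used as a check of cell identity were all detected. Of these, 4 were up-regulated (miR-144-3p, miR-142-3p, miR-142-5p and miR-223-3p) and 3 were down-regulated (miR-451a, miR-486-5p and miR-144-5p). The arms of miR-144 thus went in opposite directions. The summed level of the 7 was 18249 to 20349 CPM in control and 40809 to 56881 CPM in RUNX1. Most of this sum was miR-142-5p, at 11084 to 12588 CPM in control and 30954 to 43245 CPM in RUNX1. Of 12 microRNAs of other tissues 6 were tested and all 6 were called up, although miR-1 and miR-205-5p passed the filter only through RUNX1, so that for these a rise was required for testing. The list's summed level was 153.9 to 162.9 CPM in control and 2221.5 to 2463.9 CPM in RUNX1, and miR-206 and miR-124-3p were at 0 in every library. Most of the sum in RUNX1 was miR-143-3p, at 17.2 to 20.1 CPM in control and 1865.4 to 2049.5 CPM in RUNX1. The part of these shifts in the results was not tested. In bulk RNA, fewer cells with an RNA and less of it per cell cannot be told apart.

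A small RNA counted as altered where edgeR's quasi-likelihood test gave P below 0.05 and the log2 fold change reached 0.5 in either direction. Of the 9 snoRNA-derived microRNA entries that passed the filter on low counts, 5 were up-regulated (miR-664a-3p, miR-664a-5p, miR-664b-3p, miR-1248 and miR-3607-3p), 1 was down-regulated (miR-664b-5p) and 3 were not altered (miR-1291, miR-3651 and miR-3653). Among all 947 tested small RNAs 57.6% were altered, 28% up and 29.6% down, and among the 598 tested microRNAs 56% were altered, 33.4% up and 22.6% down. The median log2 fold change was 1.34 over the 9 entries, 0.11 over the tested microRNAs and -0.06 over all tested small RNAs. MiR-664b-3p passed the filter only through its RUNX1 libraries and miR-664b-5p only through its control libraries, so for both a difference was already required for testing and their calls are descriptions. Of the 7 entries past the filter in all 6 libraries, 4 were up-regulated and 3 were not altered. The same 6 entries passed at an adjusted p under 0.05 (background 54.6%), and in 6 of 9 the TMM-scaled CPM of the control and RUNX1 libraries did not overlap (background 64.8%). Together the 10 entries took 0.0153 to 0.0175% of all counts in control and 0.0260 to 0.0303% in RUNX1.

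**Figure D2:**
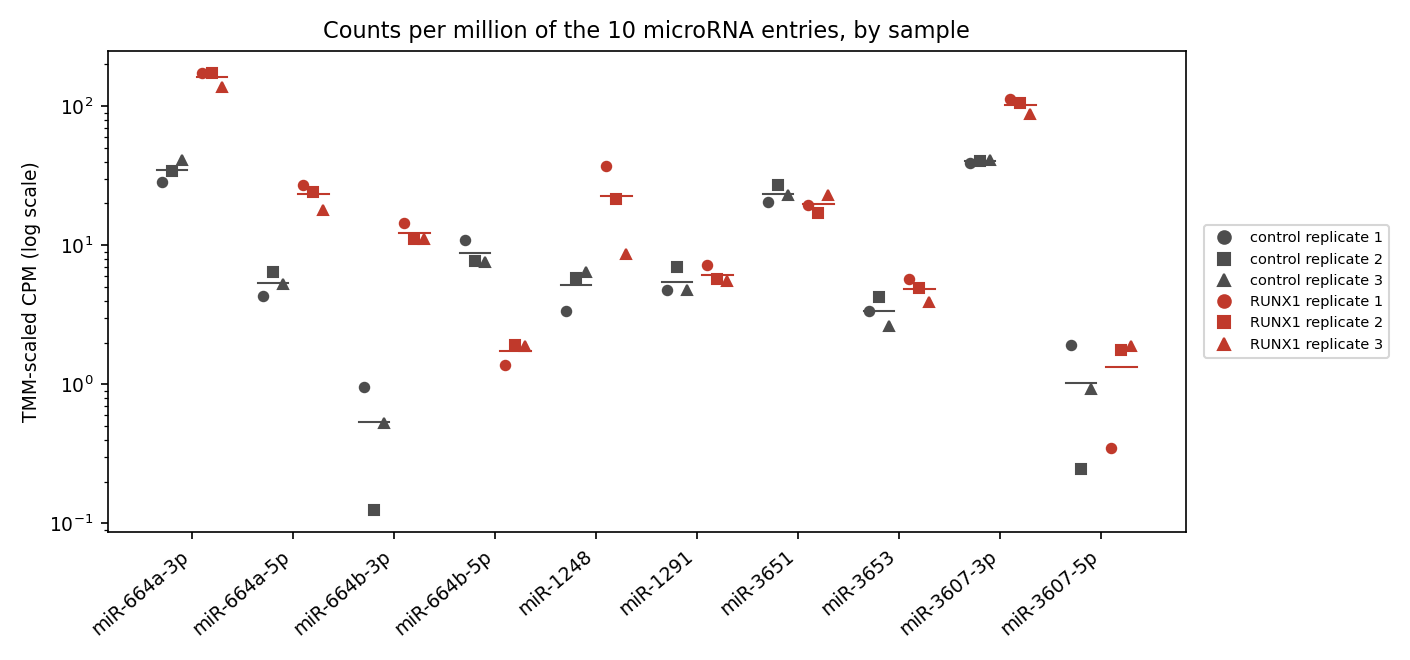
TMM-scaled CPM (log axis) of the 10 microRNA entries in the 3 control (grey) and 3 RUNX1 (red) libraries, with group means as lines and replicates by symbol. MiR-664b-3p is the lowest of the tested entries in control and lies above miR-664b-5p in every RUNX1 library.

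MiR-664a, whose 3p strand had the highest mean read level of the group over the 6 libraries, rose in both arms. The 3p strand was counted at 28.7, 34.0 and 41.3 CPM in the control samples and 174.6, 172.4 and 137.7 CPM in the RUNX1 samples. The groups were far apart, with means of 34.7 ± 6.35 and 161.6 ± 20.7 CPM (SD, n = 3). The log2 fold change was 2.20 (SE 0.176, edgeR adjusted p = 1.01e-05). The 5p strand was found at 4.30, 6.45 and 5.27 CPM in control and at 27.3, 24.3 and 18.1 CPM in RUNX1. Its groups did not overlap either, and the log2 fold change was 2.06 (SE 0.232, edgeR adjusted p = 7.11e-05). By read count miR-664a-3p ranked between 202 and 225 among the microRNAs of the control libraries and between 124 and 129 in the RUNX1 libraries.

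The balance between the arms of miR-664a was then compared within each library. The 3p strand made up 86.6 ± 2.35% of the counts of both arms in control and 87.5 ± 0.968% in RUNX1 (SD, n = 3). The log2 ratio of 3p to 5p differed by 0.14 between conditions (exact two-sided permutation test, p = 0.6). With 3 samples against 3 this test cannot go below 0.1.

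For miR-664b the more abundant arm was 5p in every control library and 3p in every RUNX1 library. For the 3p strand the control libraries held 2, 1 and 4 counts and the RUNX1 libraries 167, 70 and 76. This corresponded to 0.956, 0.124 and 0.527 CPM against 14.5, 11.2 and 11.1 CPM, and every RUNX1 library was above every control library. The fitted log2 fold change was 4.88, a size that rests on 7 control counts in all and on an entry that passed the filter through RUNX1 alone. For the 5p strand of the same precursor the counts were 23, 62 and 58 in control against 16, 12 and 13 in RUNX1, that is 10.995, 7.69 and 7.63 CPM against 1.39, 1.92 and 1.90 CPM. Its fitted log2 fold change was -2.30, for an entry that passed the filter through control alone. No other entry of the group was called down with TMM scaling, while with library size alone miR-3651 was (-0.95).

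Counted within each library, a measure that needs no scaling, miR-664b-3p made up 8%, 1.59% and 6.45% of the counts of both arms in control, with exact (Clopper-Pearson) 95% intervals of 0.984 to 26.0%, 0.0402 to 8.53% and 1.79 to 15.7%. In the RUNX1 libraries it made up 91.3%, 85.4% and 85.4%, with intervals of 86.2 to 94.9%, 75.8 to 92.2% and 76.3 to 92.0%. The lowest RUNX1 interval therefore begins above the highest control interval. The intervals cover counting error only. The means were 5.35 ± 3.35% and 87.3 ± 3.39% (SD, n = 3), and the log2 ratio of 3p to 5p differed by 6.89. The exact permutation test gave p = 0.1, the smallest value possible here, and 0.26 after Benjamini-Hochberg adjustment over the 13 ratios tested.

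**Figure D3:**
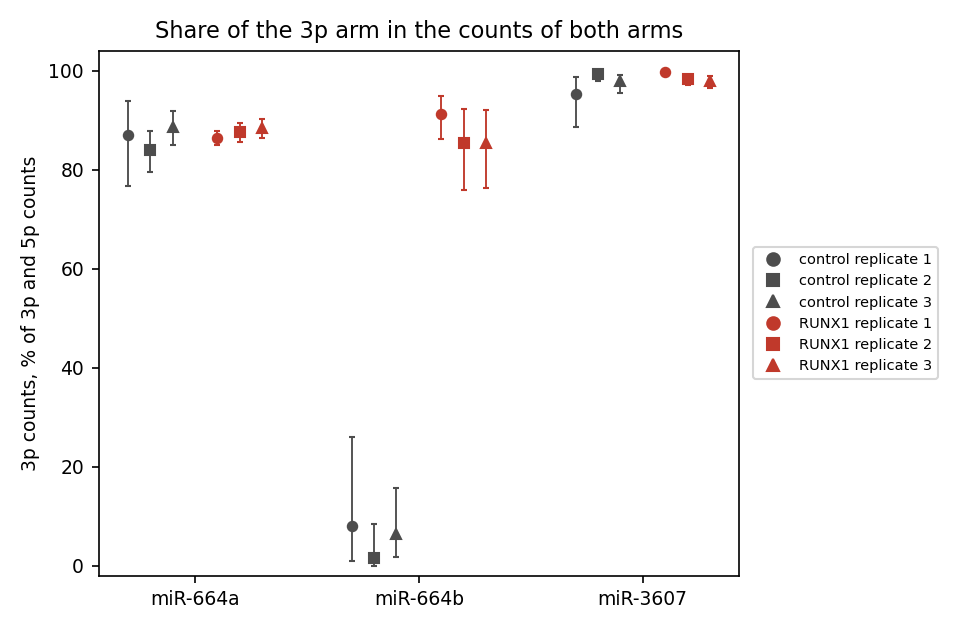
Counts of the 3p strand as a percentage of the counts of both strands for miR-664a, miR-664b and miR-3607, 1 point per library with its exact 95% interval for counting error. For miR-664b the control libraries lie between 1.59 and 8% and the RUNX1 libraries between 85.4 and 91.3%, while miR-664a and miR-3607 lie above 80% in all 6 libraries.

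The 3p strands of miR-664a and miR-664b were identical at 19 of 24 aligned positions, and the 5p strands at only 17 of 25. How reads matching both copies were assigned is not given in the sources used here. The split between them is therefore uncertain. MiR-664b-3p took 1.62 ± 1.46% of the summed miR-664a-3p and miR-664b-3p counts in control and 7.07 ± 0.848% in RUNX1. MiR-664b-5p took 61.8 ± 9.04% of the summed 5p counts in control and 7.21 ± 2.33% in RUNX1 (SD, n = 3). When the counts of the 2 copies were added before the fit, the 3p strands rose by a log2 fold change of 2.29 (SE 0.174, edgeR adjusted p = 7.10e-06) and the 5p strands by 0.84 (SE 0.188, edgeR adjusted p = 0.00392). For the 5p strands this is below the value of miR-664a-5p alone.

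MiR-1248, at the 5′ end of SNORA81, was detected at 3.35, 5.83 and 6.45 CPM in control and at 37.5, 21.4 and 8.61 CPM in RUNX1. With TMM scaling all RUNX1 libraries were above the control libraries, but they spread widely, and RUNX1 replicate 3 was only slightly above the highest control. Before that scaling the groups overlapped. RUNX1 replicate 3 held 59 of 7918551 counts, a lower share than the 49 of 6193319 in control replicate 3. The means were 5.21 ± 1.64 and 22.5 ± 14.5 CPM (SD, n = 3). The log2 fold change of 2.03 (SE 0.491, edgeR adjusted p = 0.00604) ranged from 1.45 to 2.49 when single libraries were left out, and the call held each time. With library size in place of TMM the log2 fold change was 1.30 (edgeR adjusted p = 0.0352).

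MiR-3607-3p, next to miR-664a-3p in mean read level, was steady in control at 39.2, 40.7 and 40.9 CPM and stood at 113.0, 104.9 and 88.7 CPM in RUNX1. The groups did not overlap, and the log2 fold change was 1.34 (SE 0.142, edgeR adjusted p = 5.04e-05). With library size in place of TMM it was 0.63 (edgeR adjusted p = 0.00221). Its partner miR-3607-5p, with only 4, 2 and 7 counts in control against 4, 11 and 13 in RUNX1, did not pass the filter. The groups overlapped, and a fit without the filter gave miR-3607-5p a log2 fold change of 0.71 (SE 0.591). The 3p strand made up 97.5 ± 2.04% of the counts of both arms in control and 98.7 ± 0.931% in RUNX1 (SD, n = 3), and the log2 arm ratio differed by 0.97 (exact permutation test, p = 0.4).

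The remaining 3 entries were not called altered. MiR-1291 was measured at 4.78, 6.95 and 4.74 CPM in control and 7.20, 5.76 and 5.54 CPM in RUNX1. The groups overlapped, and its log2 fold change of 0.14 had a 95% interval of -0.34 to 0.62 (edgeR adjusted p = 0.638). MiR-3651, which like miR-664a-3p covers the ACA end of its snoRNA, was measured at 20.6, 27.2 and 23.0 CPM in control and 19.5, 17.1 and 23.2 CPM in RUNX1. Its log2 fold change was -0.26 (edgeR adjusted p = 0.240), with an interval formed in the same way of -0.61 to 0.09. MiR-3653 stood at 3.35, 4.22 and 2.63 CPM in control and 5.72, 4.96 and 3.94 CPM in RUNX1, with 1 RUNX1 library inside the control range. Its log2 fold change was 0.52 (SE 0.277, edgeR adjusted p = 0.132). Without RUNX1 replicate 3 it was 0.75 and called up (edgeR adjusted p = 0.0186). With library size in place of TMM it was -0.19 and not called.

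**Figure D4:**
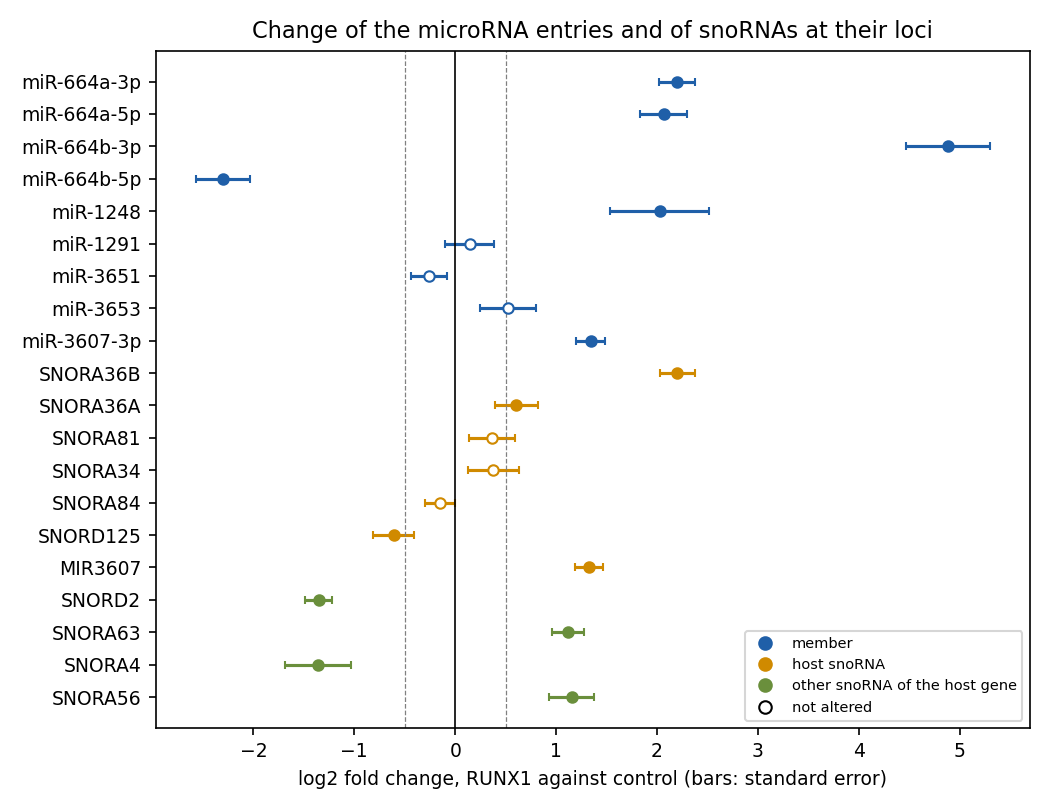
Log2 fold change of RUNX1 against control (3 libraries each) with its standard error for the 9 tested microRNA entries (blue), their 7 host snoRNA entries (orange) and 4 other snoRNAs of the same host genes (green). Dashed lines mark 0.5 in either direction and open symbols were not called altered. MiR-664b-3p and miR-664b-5p lie furthest to the right and to the left.

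The counts of the host snoRNA entries contain those of the microRNA entries. Over 7 hosts and 6 libraries, the host entry was never below the sum of its microRNA entries in the 42 pairs, and it was equal to that sum in 7. A host and its microRNA are therefore not independent measurements, and whether a read was meant to be counted for both is not given in the sources used here. SNORA36B, with 71, 343 and 365 counts in control and 2441, 1285 and 1115 counts in RUNX1, owed 95.04 to 97.18% of them to miR-664a in every library. Its log2 fold change of 2.20 (SE 0.176) is accordingly that of miR-664a-3p. The few SNORA36B counts outside miR-664a, 2, 17 and 11 in control and 113, 55 and 47 in RUNX1, rose as well. Their log2 fold change was 2.35 (SE 0.296, edgeR adjusted p = 0.000147). The entry for SNORD138, listed under the name MIR3607, exceeded the summed miR-3607 arms by at most 2 counts.

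SNORA36A changed less as a whole than either arm inside it. It was counted 26, 69 and 62 times in control and 183, 83 and 89 times in RUNX1, and at most 6 of them in any library lay outside miR-664b. In control 90.6 ± 2.63% of the SNORA36A counts were miR-664b-5p, and in RUNX1 87.0 ± 3.73% were miR-664b-3p (SD, n = 3). The entry rose by a log2 fold change of only 0.60 (SE 0.212, edgeR adjusted p = 0.0350), and this turned to -0.11 with library size in place of TMM. The call was also lost without control replicate 2 (log2 fold change 0.51), control replicate 3 (0.50) or RUNX1 replicate 1 (0.53).

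In the other 4 hosts the microRNA was a smaller part. MiR-1248 made up 8.43%, 16.4% and 18.8% of the SNORA81 counts in control and 59.9%, 48.0% and 26.6% in RUNX1, and the groups did not overlap. SNORA81 as a whole was not altered (log2 fold change 0.37, SE 0.228, edgeR adjusted p = 0.194). Its counts outside miR-1248, which stood at 36.3, 29.7 and 27.9 CPM in control and 25.1, 23.2 and 23.8 CPM in RUNX1, differed by a log2 fold change of -0.36 (SE 0.155, edgeR adjusted p = 0.0741). Without RUNX1 replicate 3 the whole SNORA81 entry was called up at 0.68, and with library size in place of TMM it was at -0.35 and not called. The ratio of miR-1248 to SNORA81 was higher in RUNX1 by 1.59 on the log2 scale (exact permutation test, p = 0.1, the smallest possible, adjusted p = 0.26).

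MiR-3653 was also a larger part of its host, SNORD125, in RUNX1. It made up 30.4%, 36.6% and 22.2% of the SNORD125 counts in control and 64.1%, 67.4% and 64.3% in RUNX1, a ratio higher by 1.13 on the log2 scale (exact permutation test, p = 0.1, adjusted p = 0.26). SNORD125 as a whole fell, with a log2 fold change of -0.61 (SE 0.205, edgeR adjusted p = 0.0288), a call lost with DESeq2 (-0.53), with no count filter (-0.53) and without control replicate 3 (-0.57), RUNX1 replicate 2 (-0.53) or RUNX1 replicate 3 (-0.39). Its counts outside miR-3653 stood at 7.63, 7.32 and 9.21 CPM in control and 3.21, 2.40 and 2.19 CPM in RUNX1. They fell by 1.60 on the log2 scale (SE 0.245, edgeR adjusted p = 0.000471), while miR-3653 itself was not called altered.

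For the other two hosts the shares of the microRNA overlapped between conditions. MiR-1291 made up 25.02 ± 4.35% of the SNORA34 counts in control and 23.5 ± 7.40% in RUNX1, and the log2 ratio differed by -0.14 (exact permutation test, p = 0.6). MiR-3651 made up 66.6 ± 0.410% of the SNORA84 counts in control and 62.2 ± 11.5% in RUNX1, with a log2 ratio that differed by -0.11 (exact permutation test, p = 0.4). The RUNX1 libraries spread more than the controls here, and replicate 3 had the highest share for both. Neither SNORA34 (log2 fold change 0.38, SE 0.256) nor SNORA84 (-0.15, SE 0.151) was called altered with all 6 libraries and TMM. SNORA34 was called up at 0.73 without RUNX1 replicate 3. With library size in place of TMM SNORA34 was at -0.35 and not called, and SNORA84 was called down at -0.85.

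**Figure D5:**
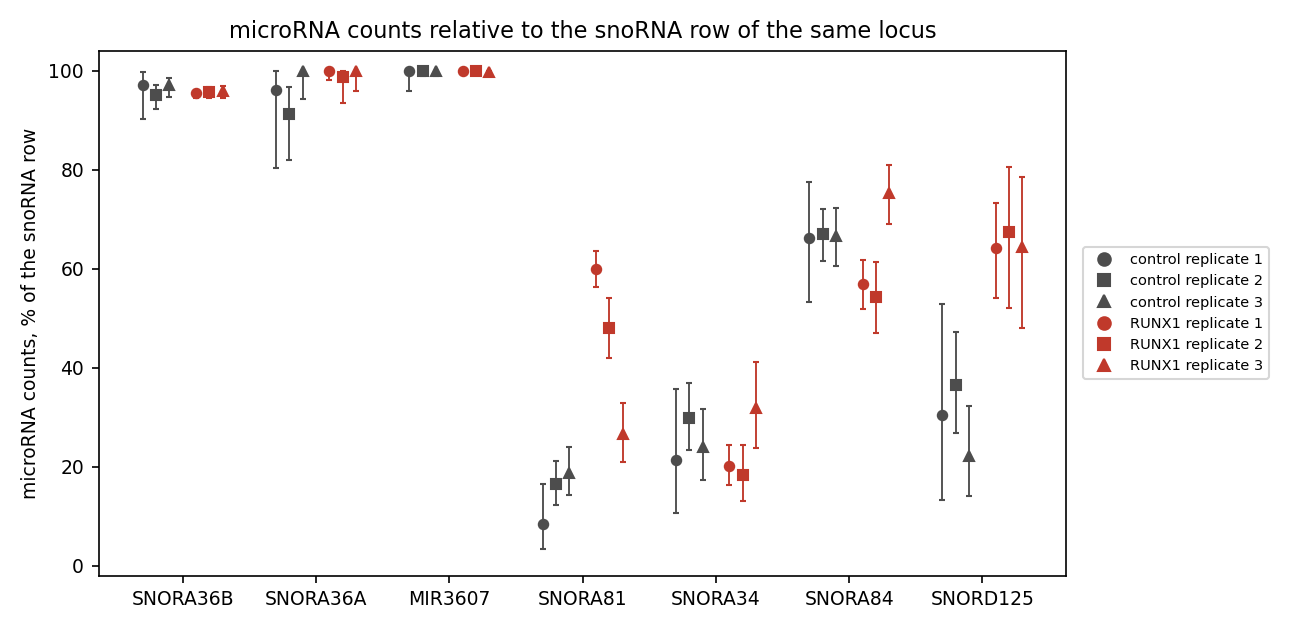
Counts of the microRNA entries as a percentage of the counts of the snoRNA entry at the same locus, 1 point per library with its exact 95% interval for counting error. SNORA36B, SNORA36A and MIR3607 lie above 90% in all libraries, and for SNORA81 and SNORD125 the 3 RUNX1 libraries lie above the 3 control libraries.

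The snoRNAs of these loci did not move as a block. Of 11 listed snoRNA entries, the 7 hosts and 4 others inside EIF4A2 and DKC1, 5 were up-regulated, 3 were down-regulated and 3 were not altered. Their median log2 fold change was 0.38, against -0.24 over 74 tested SNORA entries, of which 62.2% were altered (28.4% up and 33.8% down), and -0.12 over 116 tested SNORD entries, of which 56.9% were altered (27.6% up and 29.3% down). SNORA36B, SNORA36A and MIR3607, counted here as up-regulated, owed at least 91.3% of their counts to their microRNAs in every library. The count and the median are therefore not independent of the microRNA entries. With the microRNA counts removed, SNORA36B was called up and SNORD125 down. SNORA81, SNORA34 and SNORA84 were then not altered, and SNORA36A and MIR3607 were not tested. Each of the 4 other snoRNAs overlapped an exon in some transcripts of its gene. This held for SNORD2 in 4 of 17, SNORA63 in 4 of 11, SNORA4 in 2 of 12 and SNORA56 in 3 of 6. In EIF4A2, the gene that holds miR-1248 and SNORA81, SNORD2 was at 461.8, 430.2 and 440.8 CPM in control and 185.8, 184.6 and 151.3 CPM in RUNX1. SNORD2, a guide for 2′-O-methylation of ribosomal RNA, thus fell (log2 fold change -1.35, SE 0.134, edgeR adjusted p = 3.54e-05). SNORA4, in the same gene, also fell (-1.36, SE 0.327, edgeR adjusted p = 0.00576). SNORA63, another neighbor in EIF4A2, rose (1.12, SE 0.162, edgeR adjusted p = 0.000348) from 16.7–22.1 to 38.7–44.9 CPM. In DKC1, beside miR-664b, SNORA56 rose as well (1.15, SE 0.227, edgeR adjusted p = 0.00198), although SNORA63 and SNORA56 fell short of the call with library size in place of TMM (0.41 and 0.46).

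The small RNAs nearest to miR-664a-3p over the 6 libraries were sought by the root mean square difference of centred log2 CPM, with 1 added to each CPM. Adding 1 shrinks the fold changes of rarer entries, so the ranking depends on this setting. The nearest was SNORA36B at 0.0333, which holds the same counts, followed by hsa-miR-196a-5p at 0.118 and hsa-miR-29b-2-5p at 0.150. Both microRNAs were up-regulated, with log2 fold changes of 2.70 and 3.30, and the difference from miR-664a-3p was not tested.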

How the data were processed

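Small RNA libraries were made with the TruSeq Small RNA kit from total RNA of each sample. The authors counted reads per annotated small RNA, and deposited raw counts, not normalized, as 1 table per library. The submitters' processing notes name CASAVA 1.8.2 and hg19. For finding altered small RNAs the paper names the OASIS platform at standard settings. The aligner and the treatment of reads that match several or overlapping entries are not given in the sources used here. The inserts were short, so counts of a snoRNA entry are fragments and not full-length snoRNA.

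Counts were fitted in R 4.3.3 with edgeR 4.0.16 (filterByExpr with minimum count 10 and minimum total 15, TMM, glmQLFit and glmQLFTest, condition as the only term) over all entries, and P-values were adjusted by Benjamini-Hochberg over 947. Standard errors were obtained from the log2 fold change and the square root of F. Ratios within a library used a pseudocount of 0.5 and exact two-sided permutation tests (SciPy 1.17.1). DESeq2 1.42.0, other scalings, filters and left-out libraries were alternatives. Those that subtract microRNA counts from host entries were added after the data were seen, as was the match of the entry MIR3607 to SNORD138 (RefSeq synonym).

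All 10 microRNAs, their 7 hosts and 4 neighboring snoRNAs were named whether altered or not, along with the 3 small RNAs most like the most abundant member. Members and lists were chosen with earlier results of these data known. Coordinates and host genes are from GENCODE 29 (GRCh38) and, for SNORD138, from RefSeq (GRCh38.p14). Mature sequences come from RefSeq, where 7 of 10 matched; miR-3653, miR-3607-3p and miR-3607-5p are named without one. RUNX1 messenger RNA cannot be checked in small RNA counts. Sample titles gave the replicate numbers, since 2 RUNX1 libraries have names with the same number. Control and RUNX1 library names carry different letters, and what these mark is not given in the sources used here.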

Additional observations from a re-analysis of the deposited data

How the results depend on the processing

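Library size in place of TMM moved the median log2 fold change of all tested small RNAs by -0.70, and TMM factors from microRNAs alone moved it by -0.19. With library size alone 120 small RNAs were up-regulated and 521 down-regulated, against 265 and 280 with TMM. Of the snoRNA-derived microRNAs 2 were then down-regulated, with miR-3651 (-0.95) added, and 2 entries of the snoRNA list were up-regulated, while SNORA36A turned to -0.11. SNORA36A was also not called with TMM from microRNAs (0.41). Requiring at least 10 counts in every sample left 2 up-regulated microRNAs, since this filter removes every entry with fewer counts in any library, the shallow control replicate 1 included. Under the other settings the counts of calls stayed within 1.5 times their value. Leaving out 1 library at a time gave 253 to 309 up-regulated and 261 to 303 down-regulated small RNAs, 5 to 6 up-regulated members and 1 down-regulated member, and 4 to 7 and 2 to 3 entries of the snoRNA list. The ratio of miR-664a-3p to SNORA36B, near 0 at 0.0033, changed sign with a pseudocount of 5 (-0.0035) and against the SNORA36B counts outside miR-664a (-0.20), and the cause was not tested. Single small RNAs gave the same call in 314 of 331 values under the alternatives, which include the adjusted p as threshold on the unaltered fit.

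Samples with the same replicate number did not deviate together (correlations of -0.02, -0.07 and 0.03). With the replicate number as a block 259 small RNAs were up-regulated and 287 down-regulated, and 5 and 1 of the microRNAs described here. The paired sign-flip test cannot go below 0.25 with 3 pairs.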

Other observations

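A seventh microRNA gene of the annotation, MIR6516, overlaps the small Cajal body RNA gene SCARNA16 and was not in the list. Its entry miR-6516-5p was counted 3, 6 and 8 times in the control libraries and 34, 22 and 19 times in the RUNX1 libraries. Its fitted log2 fold change was 1.64, but it passed the filter on low counts only through RUNX1, with 1 control library past it, so a difference was required for testing. MiR-6516-3p was counted 5, 21 and 15 times in control against 25, 29 and 20 times in RUNX1 (log2 fold change 0.44, SE 0.353, edgeR adjusted p = 0.317). The SCARNA16 entry was at 0 in all 6 libraries, unlike the 7 host entries described above, which held the counts of their microRNAs. These entries were named after their values were seen. SNORA36C, a further relative of SNORA36A and SNORA36B, had 24 counts over all 6 libraries and was not tested.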
